A study of Mus musculus with 11 samples.

Results

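The 9 genes described here encode the RUNX transcription factors Runx1, Runx2 and Runx3, their shared partner subunit Cbfb, the C/EBP factors Cebpa, Cebpb, Cebpd and Cebpg, and the nuclear receptor coregulator Nrip1. They were chosen by name, by matching Entrez gene IDs to symbols, and are 9 of the 24809 gene IDs in the RNA table and 9 of the 24541 in the H3K4me3 table. All 9 passed the filter on low counts in both assays. Granulosa cells, the somatic cells around the oocyte, came from C57BL/6 mice treated with equine chorionic gonadotropin (eCG) and sampled 48 h later or from untreated mice (0 h). eCG acts on the receptor for follicle-stimulating hormone (FSH), and the labels call the treatment FSH. RNA was sequenced from 3 libraries at 48 h and 3 at 0 h, taken on postnatal day 21 by puncture of follicles. H3K4me3 is a histone modification found at the promoters of active genes. It was profiled by ChIP-seq, sequencing of immunoprecipitated chromatin, in 2 libraries at 48 h and 2 at 0 h, for which no age is given. Because no mice were left untreated for the 48 h, eCG cannot be told apart from elapsed time and collection. Whether the libraries of a group came from separate or pooled animals is not given beyond the statement that they are biological replicates.

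RUNX proteins bind DNA through their runt domain, and CBFB, which does not itself bind DNA, stabilizes that binding. In mice, RUNX1 helps to maintain the identity of fetal granulosa cells together with FOXL2, and RUNX2 and CBFB act in granulosa cells around ovulation and in the forming corpus luteum. C/EBP proteins are basic leucine zipper (bZIP) factors. Mouse granulosa cells that lack CEBPA and CEBPB fail to luteinize after the ovulatory signal, and mice without NRIP1 luteinize follicles but do not release the egg.

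Total counts ran between 12013849 and 26343971 per RNA library at 48 h and between 15050013 and 18511429 at 0 h. H3K4me3 libraries held 17137463 and 17968033 counts (48 h), against 15124233 and 11989769 (0 h). All 12 granulosa markers were detected, with a summed RNA level of 32826 to 33173 CPM (counts divided by library size, corrected with TMM factors) at 48 h and 13620 to 18048 CPM at 0 h. Of these markers, 7 were higher and 3 lower at 48 h, with a median log2 fold change of 0.50. The sum rested mainly on Inha and Inhba, named after their values were seen, with means of 16849 and 10962 CPM at 48 h. Markers of other cells were present. Endothelial markers summed to 757, 251 and 307 CPM in 48 h replicates 1 to 3, against 132 to 141 CPM at 0 h, and 11 of the 12 were higher at 48 h. Markers of theca and stroma summed to 4675, 1920 and 1893 CPM at 48 h, against 1931 to 2398 CPM at 0 h, and 3 of 12 were higher and 3 lower at 48 h. Red cell markers summed to 164 to 686 CPM at 48 h and 68.5 to 129.6 CPM at 0 h, with 4 of the 8 genes listed at 0 in every library and all 3 tested genes higher at 48 h. Oocyte markers summed to 132, 57.4 and 61.4 CPM in 48 h replicates 1 to 3 and to 174 to 196 CPM at 0 h, with 4 of the 10 tested lower at 48 h. The largest part of the 0 h sum was Kit, named after its values were seen, with means of 26.9 CPM at 48 h and 91.2 CPM at 0 h. Immune markers summed to 361, 214 and 287 CPM at 48 h and to 249.8, 409 and 303 CPM at 0 h, and 0 of the 13 tested passed in edgeR or DESeq2, with 1 at an unadjusted p under 0.05 in edgeR. The 48 h replicate 1 thus stood apart from the other 48 h libraries by endothelial, stromal and oocyte markers, and it had their highest immune sum. The 0 h replicate 2 had the highest immune sum of all RNA libraries. In bulk samples, fewer cells of a type and less RNA per cell cannot be told apart.

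The promoter tables of RefSeq (GRCm38.p6) hold 11 windows of 300 bases, 250 before and 50 after a start site, for 8 of the 9 genes. A single stretch of 18 bases is identical in 1 window each of Runx1, Runx2 and Runx3 and is shown because it sets the RUNX genes apart from the other members. It was found in the gene's own direction in 3 of all 32851 windows, those of the 3 RUNX genes, and on the opposite strand in 1, that of Gm16225, a noncoding RNA gene next to Runx3. Capitals mark the shared stretch, which holds ACCACA, the RUNX core read on the opposite strand, 2 times.
Runx1: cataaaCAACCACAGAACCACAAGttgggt
Runx2: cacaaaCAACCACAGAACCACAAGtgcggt
Runx3: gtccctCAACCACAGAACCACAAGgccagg
The Runx1 sequence lies at chr16:92826025-92826054 on the minus strand, with the shared stretch at bases 27 to 44 of the transcript. The Runx2 sequence lies at chr17:44814583-44814612 on the minus strand, with the stretch at bases 22 to 39 of the transcript. The Runx3 sequence lies at chr4:135120503-135120532 on the plus strand, with the stretch 136 to 119 bases before the start (positions -136 to -119).

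Runx2, the member whose RNA differed most between the groups, also has motif matches outside the shared stretch, upstream of its start. The 250 bases before it, at chr17:44814628-44814877 on the minus strand, hold a RUNX core at -80 to -75 and a C/EBP match at -48 to -41, both in capitals (ACCACA, which is the core on the opposite strand, and TTGCAAAA).
Runx2 upstream: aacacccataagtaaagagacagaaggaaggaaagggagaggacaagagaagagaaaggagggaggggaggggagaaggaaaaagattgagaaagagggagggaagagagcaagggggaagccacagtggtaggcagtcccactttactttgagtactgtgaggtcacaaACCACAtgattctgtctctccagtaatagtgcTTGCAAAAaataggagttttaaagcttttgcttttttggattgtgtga
Cebpb, a gene whose promoter is known to respond to cyclic AMP, is shown for comparison. The 250 bases before its start, at chr2:167688665-167688914 on the plus strand, hold the core TGACG of the cyclic AMP response element at -53 to -49 and at -7 to -3 in the direction of the gene, and at -180 to -176 on the opposite strand, where it reads CGTCA.
Cebpb upstream: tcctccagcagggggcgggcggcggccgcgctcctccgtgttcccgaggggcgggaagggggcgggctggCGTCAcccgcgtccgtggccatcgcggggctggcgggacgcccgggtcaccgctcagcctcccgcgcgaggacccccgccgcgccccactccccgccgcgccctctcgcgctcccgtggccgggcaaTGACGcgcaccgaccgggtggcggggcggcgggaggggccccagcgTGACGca
On either strand, the RUNX core TGTGGT occurred in 16.8% of all windows, the C/EBP motif TTGCNNAA in 10.8% and TGACG in 20.8%. Among the members, the RUNX core was found in the RUNX genes, the C/EBP motif in Runx2 and TGACG in Cebpb. These matches describe the letters of the windows and are not measured binding sites.

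The RNA comparison asked which of these factors differed in abundance between cells taken 48 h after eCG and untreated cells. Runx2 RNA was 17.7 times as high at 48 h as at 0 h, Runx1 RNA was 0.508 times as high, and the other 7 genes did not pass the test. Thus 1 of 9 members was higher and 1 of 9 lower, where 16.0% of the 14401 genes tested were higher and 15.8% lower, 31.8% in all (edgeR's quasi-likelihood test, Benjamini-Hochberg adjusted p under 0.05). The groups did not overlap for 4 members, 3 of them higher at 48 h, against 47.9% of all genes tested without overlap and 22.1% without overlap and higher. The median log2 fold change was 0.27 over the 9 members and -0.03 over all genes tested.

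Runx2 (gene ID 12393; chromosome 17, 44495987 to 44814797), a RUNX factor known for bone formation, had 35.04, 23.3 and 25.8 CPM in the 3 libraries at 48 h and 1.61, 1.78 and 1.32 CPM in those at 0 h. Every library at 48 h lay above every library at 0 h, and the raw counts behind these values were 296 to 582 at 48 h and 25 to 36 at 0 h. The mean was 28.03 ± 6.20 CPM at 48 h and 1.57 ± 0.232 CPM at 0 h (SD, n = 3 each). The log2 fold change was 4.15 ± 0.21 (SE; fold 17.7), with an adjusted p of 3.02e-05 in edgeR's quasi-likelihood test. Of the 14401 genes tested, 27 had a larger log2 fold change. The highest value stood in 48 h replicate 1, the library with the highest endothelial and stromal sums, and without that library the log2 fold change was 3.95. The part of these cells in the result was not tested. Runx2 overlaps Supt3, which encodes a subunit of the SAGA coactivator complex. Supt3 had 33.4 ± 4.70 CPM at 48 h and 28.3 ± 4.47 CPM at 0 h, a log2 fold change of 0.24 ± 0.14 that did not pass (adjusted p = 0.225, edgeR). Because use of strand in the counting is not given, reads of overlapping genes may not be told apart.

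Runx1 (gene ID 12394; chromosome 16, 92601466 to 92826074), a RUNX factor known for blood cell formation and for fetal granulosa cells, had 25.0, 25.0 and 26.7 CPM at 48 h and 49.6, 49.7 and 51.4 CPM at 0 h. All 3 libraries at 48 h lay below all 3 at 0 h, and within each group the libraries were close to each other. The mean was 25.6 ± 1.01 CPM at 48 h and 50.3 ± 1.03 CPM at 0 h (SD, n = 3 each). The log2 fold change was -0.98 ± 0.08, with an adjusted p of 2.04e-04 in edgeR's quasi-likelihood test. Without 48 h replicate 1 it was -0.96.

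Runx3 (gene ID 12399; chromosome 4, 135120645 to 135177990), a RUNX factor known from T cells and sensory neurons, was near the limit of detection. It was read 10, 14 and 10 times in the 48 h libraries, against 17, 15 and 18 times in the 0 h libraries, or 0.767, 0.560 and 0.871 CPM at 48 h and 1.09, 0.741 and 0.950 CPM at 0 h. The groups overlapped on the CPM scale. The log2 fold change of -0.37 ± 0.35 did not pass (adjusted p = 0.449, edgeR).

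**Figure D1:**
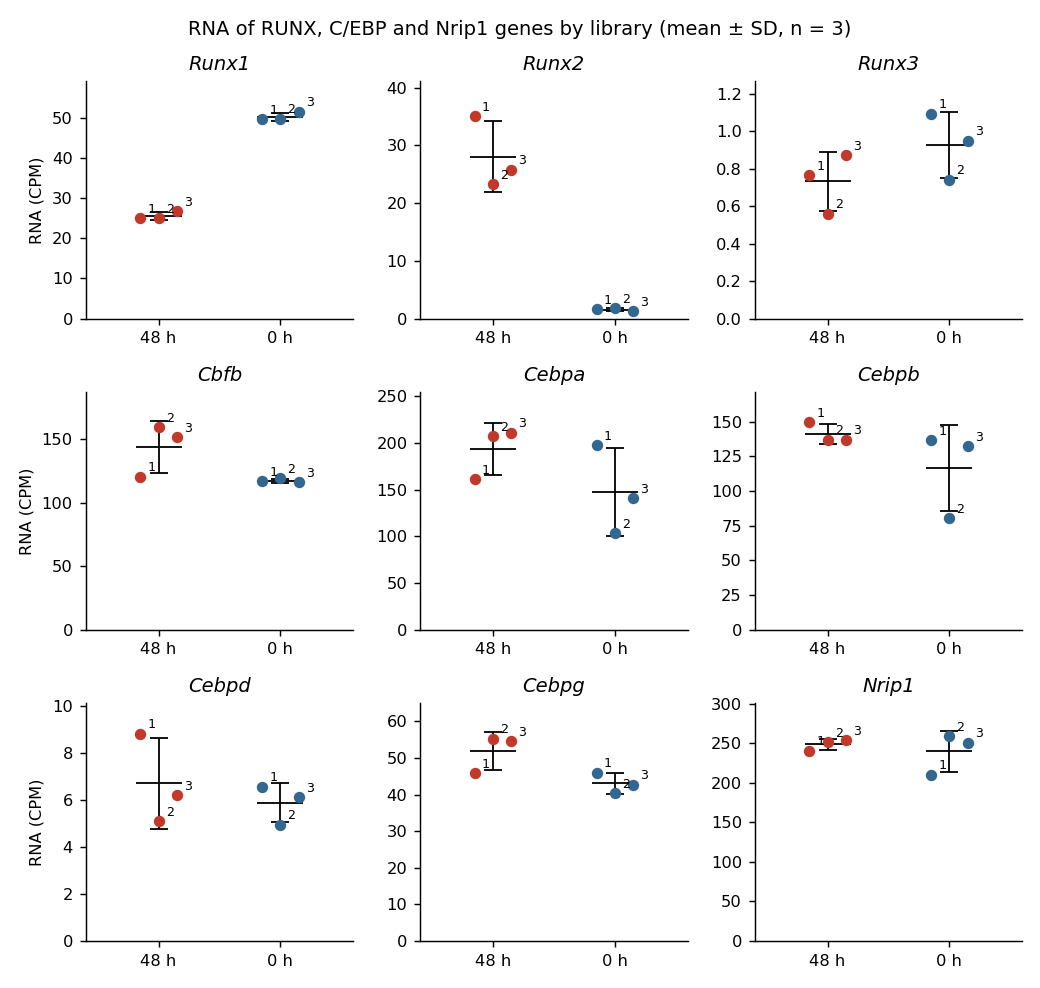
RNA level in CPM (y axis) of each of the 9 genes in the 48 h libraries (red) and the 0 h libraries (blue), with replicate numbers beside the points and the mean ± SD as lines (n = 3 each). Runx2 sits between 23.3 and 35.04 CPM at 48 h and between 1.32 and 1.78 CPM at 0 h, while Runx1 sits between 25.0 and 26.7 CPM at 48 h and between 49.6 and 51.4 CPM at 0 h.

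Within each library the balance of Runx2 and Runx1 counts moved with the group. For every 100 Runx1 counts there were 140, 93.3 and 96.4 Runx2 counts at 48 h and 3.24, 3.58 and 2.56 at 0 h. On average the ratio was 110.0 ± 26.2 at 48 h, against 3.13 ± 0.516 at 0 h (SD, n = 3 each), a difference of 5.12 on the log2 scale. Such a ratio needs no scaling between libraries. It does not correct for transcript length, so the ratio can be compared between libraries but does not say which transcript was more abundant in a cell. For Cebpa per 100 Cebpb counts 48 h replicates 1 to 3 had 108, 151 and 154, against 145, 128 and 107 for 0 h replicates 1 to 3. The groups overlapped through 48 h replicate 1, and the other 48 h values lay above all 0 h values.

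**Figure D2:**
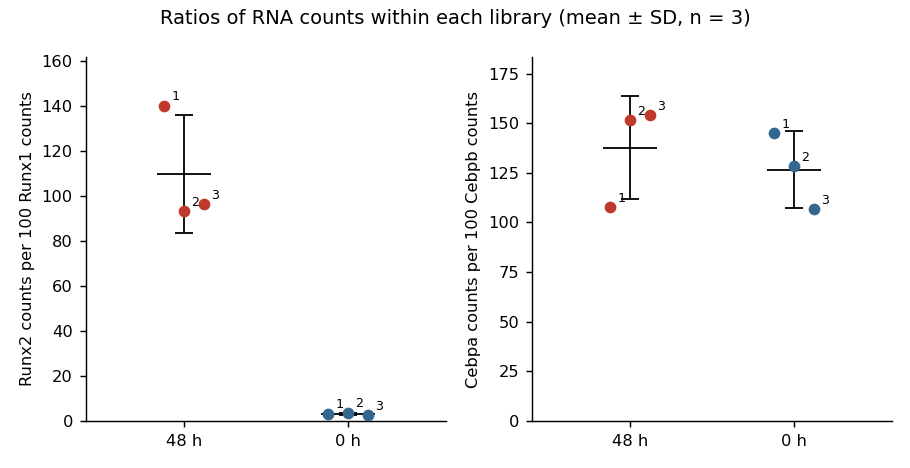
Ratio of raw RNA counts within each library (y axis), Runx2 per 100 Runx1 counts and Cebpa per 100 Cebpb counts, in the 48 h libraries (red) and the 0 h libraries (blue), with the mean ± SD as lines (n = 3 each). The Runx2 ratio is 93.3 to 140 at 48 h and 2.56 to 3.58 at 0 h, while the Cebpa ratio overlaps between the groups.

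Cbfb (gene ID 12400; chromosome 8, 105170674 to 105217989), the subunit that all RUNX factors share, had 121, 159.7 and 152 CPM at 48 h and 117, 119 and 116 CPM at 0 h. The groups did not overlap, but 48 h replicate 1 lay close to the 0 h libraries. The log2 fold change of 0.30 ± 0.11 did not pass (adjusted p = 0.0706, edgeR). It was 0.41 with an adjusted p of 0.00341 without 48 h replicate 1. It also passed with DESeq2's size factors in edgeR (adjusted p = 0.0483) and in DESeq2 itself (adjusted p = 0.0268).

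The 4 C/EBP genes gave no call in RNA. Cebpa (gene ID 12606; chromosome 7, 35119293 to 35121928), known for differentiation of liver, fat and myeloid cells, had 161, 207 and 211 CPM at 48 h and 198, 104 and 141 CPM at 0 h. The groups overlapped, and the log2 fold change was 0.39 ± 0.21 (adjusted p = 0.194, edgeR). It passed only without 0 h replicate 1, at 0.66 with an adjusted p of 0.0287, among the 11 alternatives run. Cebpb (gene ID 12608; chromosome 2, 167688915 to 167690432), which is induced by gonadotropins in the ovary, had 149, 137 and 137 CPM at 48 h and 136, 80.6 and 132 CPM at 0 h. Its groups barely failed to overlap, with a lowest 48 h value of 136.9 CPM and a highest 0 h value of 136.4 CPM. The log2 fold change was 0.28 ± 0.18 (adjusted p = 0.267, edgeR).

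In both genes 0 h replicate 2 was the lowest of the 6 libraries. Without it the log2 fold change was 0.20 for Cebpa and 0.08 for Cebpb. That library also had the highest immune marker sum. It had the highest level of Egr1, an immediate early gene, at 108 CPM, against 61.1 and 51.3 CPM in the other 0 h libraries, a gene named after its values were seen. The part of these differences in the Cebpa and Cebpb values was not tested.

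Cebpd (gene ID 12609; chromosome 16, 15887286 to 15889545), known from inflammation and fat cell differentiation, had 8.82, 5.08 and 6.18 CPM at 48 h and 6.56, 4.94 and 6.12 CPM at 0 h. The groups overlapped, and the log2 fold change of 0.18 ± 0.24 did not pass (adjusted p = 0.597, edgeR). Its sign rested on 48 h replicate 1, without which it was -0.07. Cebpd overlaps Spidr, a DNA repair gene with 19.4 ± 3.48 CPM at 48 h and 18.7 ± 2.28 CPM at 0 h (SD, n = 3 each). Cebpg (gene ID 12611; chromosome 7, 35046422 to 35056566), a short C/EBP that dimerizes with the others and lacks their activation domain, had 45.8, 55.3 and 54.5 CPM at 48 h and 46.0, 40.4 and 42.7 CPM at 0 h. The groups overlapped through replicate 1 of each time, and the log2 fold change of 0.27 ± 0.10 did not pass (adjusted p = 0.0710, edgeR). It passed without 48 h replicate 1 (adjusted p = 0.0108), with DESeq2's size factors in edgeR (adjusted p = 0.0453) and in DESeq2 (adjusted p = 0.0462).

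Nrip1 (gene ID 268903; chromosome 16, 76287403 to 76373827), also known as RIP140, represses nuclear receptors bound by ligand. It had 241, 251 and 254 CPM at 48 h and 211, 259 and 251 CPM at 0 h. The groups overlapped and the log2 fold change was 0.05 ± 0.10 (adjusted p = 0.733, edgeR). Its sign depended on the scaling: it was -0.12 with library size as the only scaling, where the median of all genes was -0.20, against -0.03 with TMM.

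**Figure D3:**
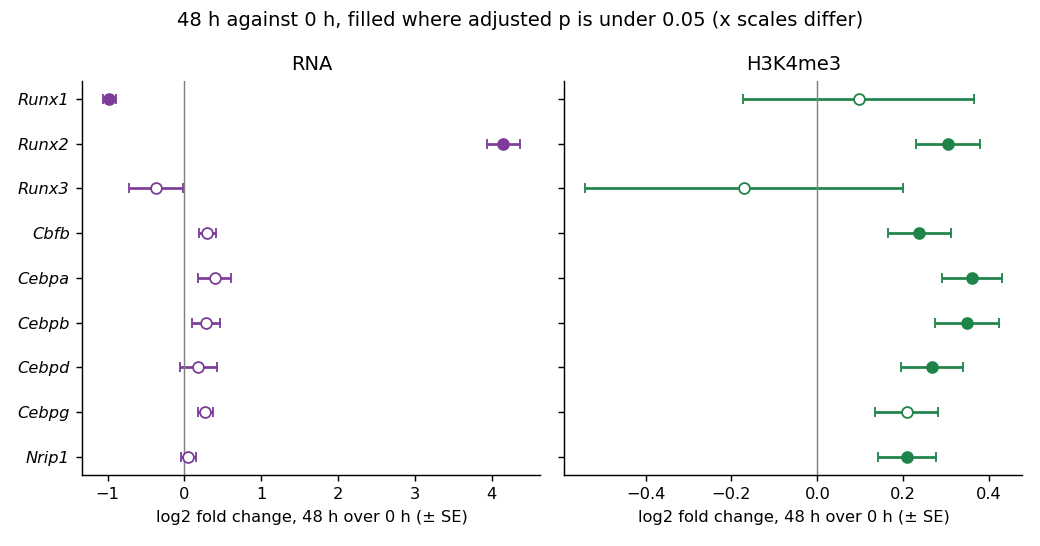
Log2 fold change, 48 h over 0 h, of each of the 9 genes (rows) with its SE as a bar, in RNA (left, purple) and H3K4me3 (right, green), on x axes of different scale. Filled points passed an adjusted p of 0.05: in RNA these are Runx2 at 4.15 and Runx1 at -0.98, and in H3K4me3 the 6 filled points lie between 0.21 and 0.36.

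The H3K4me3 comparison asked whether the mark at the same genes differed between the groups. It was higher at 48 h at 6 of the 9 genes, by 1.16 to 1.28 times, and lower at 0 of 9, in DESeq2 and at an unadjusted p under 0.05 as well. Among all 24476 genes tested, 6.35% were higher and 2.08% lower, 8.42% in all (edgeR, Benjamini-Hochberg adjusted). Of the 8979 genes with at least 50 CPM, a bound set after the values were seen, 10.6% were higher. The groups did not overlap for 7 members, all of them higher at 48 h. Of all genes tested, 49.3% had groups that did not overlap and 26.5% did so with 48 h higher. Of those with at least 50 CPM, 40.6% did so with 48 h higher. The median log2 fold change was 0.24 over the 9 members, 0.05 over the genes with at least 50 CPM and -0.00143 over all genes tested. The count of 6 rested on single libraries: it was 0 without 0 h replicate 1, 2 without 0 h replicate 2, 3 without 48 h replicate 1 and 6 without 48 h replicate 2. In DESeq2 it was 2. Values are means ± SD of n = 2 libraries a group, and the test draws on variation shared across genes.

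Runx2 had 56.6 and 56.3 H3K4me3 CPM at 48 h and 46.9 and 44.3 CPM at 0 h. Both libraries at 48 h lay above both at 0 h, and the log2 fold change was 0.30 ± 0.08 (SE; fold 1.23, adjusted p = 0.00562, edgeR). At 0 h, where its RNA was at 1.57 ± 0.232 CPM, its H3K4me3 count was 45.6 ± 1.87 CPM. Averaged over both groups, the count exceeded that of 97.2% of the 5129 genes that had no RNA count in any library, whose median was 1.56 CPM. The length counted per gene is not known, so these ranks are descriptive. The call was lost without 0 h replicate 1 (adjusted p = 0.186), without 0 h replicate 2 (adjusted p = 0.121) and in DESeq2 (adjusted p = 0.0697). The overlapping Supt3 had 82.0 ± 2.72 CPM at 48 h and 76.2 ± 1.40 CPM at 0 h and did not pass (log2 fold change 0.10 ± 0.07, adjusted p = 0.431).

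Runx1 showed the reverse arrangement, a well detected RNA with a low H3K4me3 count. It had 3.66 and 3.03 H3K4me3 CPM at 48 h and 3.52 and 2.66 CPM at 0 h, from raw counts of 61 and 54 (48 h), against 55 and 32 (0 h). The groups overlapped, and the log2 fold change of 0.10 ± 0.27 did not pass (adjusted p = 0.889, edgeR). Its mean exceeded 86.6% of the genes with no RNA count, and it lay below their 90th percentile of 4.37 CPM. RefSeq gives Runx1 more than 1 start site, and the window counted for each gene is not given in the sources used here, so it cannot be told which start the count covers. Runx3 had raw counts of 25 and 19 in the 48 h libraries, against 25 and 15 in the 0 h libraries, or 1.28 ± 0.307 CPM at 48 h and 1.42 ± 0.249 CPM at 0 h. Its groups overlapped (log2 fold change -0.17 ± 0.37, adjusted p = 0.852, edgeR), and its mean exceeded that of 30.6% of the genes with no RNA count.

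**Figure D4:**
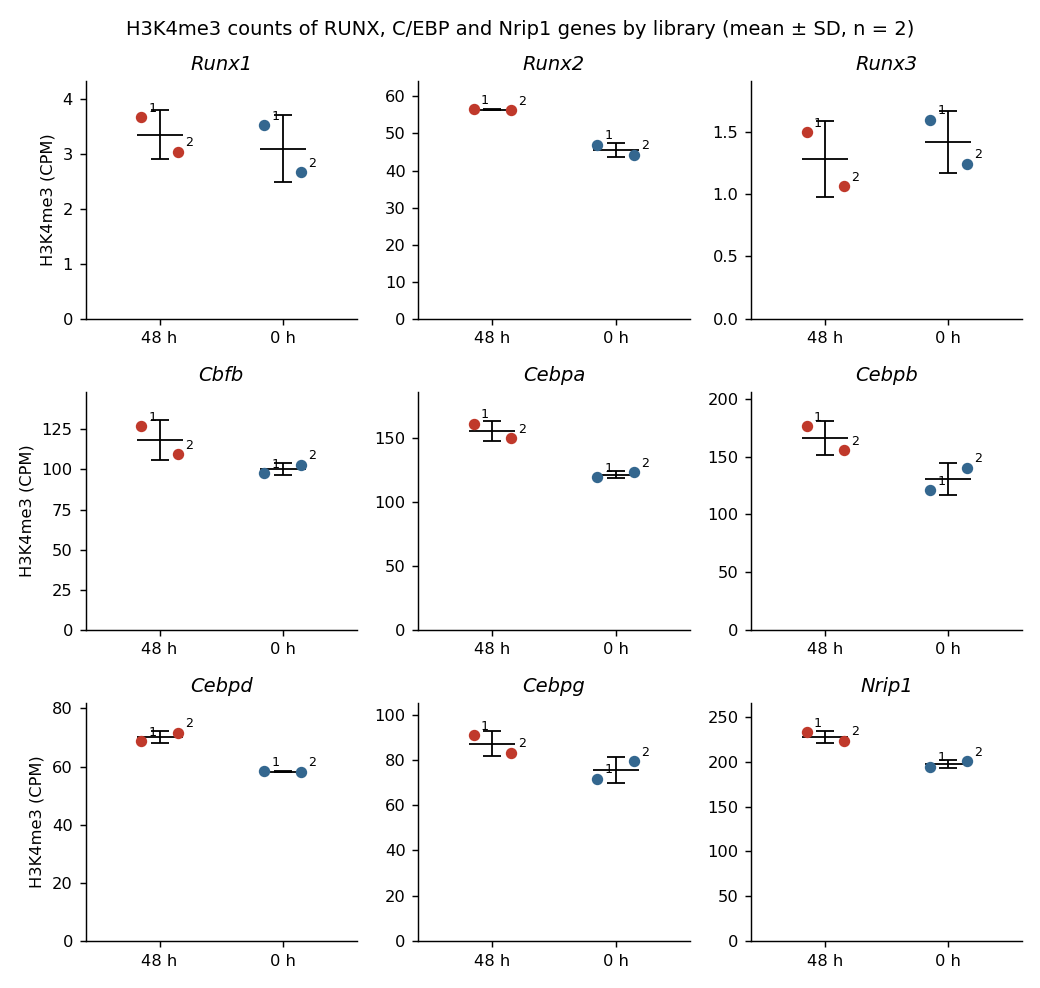
H3K4me3 count in CPM (y axis) of each of the 9 genes in the 48 h libraries (red) and the 0 h libraries (blue), with replicate numbers beside the points and the mean ± SD as lines (n = 2 each). Runx1 and Runx3 overlap between the groups at 1.07 to 3.66 CPM, while the other 7 genes lie higher in both 48 h libraries, such as Cebpa at 150.2 to 162 CPM at 48 h and 119.7 to 124 CPM at 0 h.

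Cebpa had 162 and 150.2 H3K4me3 CPM at 48 h and 119.7 and 124 CPM at 0 h. The groups did not overlap, and the log2 fold change was 0.36 ± 0.07 (adjusted p = 3.06e-04, edgeR). Of the 9 alternatives run it lost its call in 1, without 0 h replicate 1 (adjusted p = 0.0979), and it passed in DESeq2. Cebpb had 176 and 156 CPM at 48 h and 121 and 140.5 CPM at 0 h, a log2 fold change of 0.35 ± 0.07 (adjusted p = 0.00103, edgeR). That call was lost without 0 h replicate 1 (adjusted p = 0.362) and without 48 h replicate 1 (adjusted p = 0.0760). A noncoding RNA gene within 5000 bp of Cebpb, A530013C23Rik, had nearly the same H3K4me3 values, with 172 ± 14.6 CPM at 48 h and 136 ± 13.1 CPM at 0 h. Its RNA counts were 1 to 4 at 48 h and 0 to 2 at 0 h, so the mark cannot be given to either gene alone.

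Cebpd had 68.6 and 71.7 H3K4me3 CPM at 48 h and 58.3 and 58.3 CPM at 0 h, a log2 fold change of 0.27 ± 0.07 without overlap (adjusted p = 0.0122, edgeR). It did not pass without 0 h replicate 1 (adjusted p = 0.347), without 0 h replicate 2 (adjusted p = 0.104) or in DESeq2 (adjusted p = 0.0964). The overlapping Spidr had 37.5 ± 1.97 CPM at 48 h and 37.8 ± 0.448 CPM at 0 h. Cebpg had 91.0 and 83.3 CPM at 48 h and 71.6 and 79.5 CPM at 0 h. It did not overlap either, but its log2 fold change of 0.21 ± 0.07 did not pass (adjusted p = 0.0684, edgeR). It passed without 48 h replicate 2 (adjusted p = 0.0136).

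Cbfb had 127 and 109 H3K4me3 CPM at 48 h and 97.6 and 103 CPM at 0 h, with a log2 fold change of 0.24 ± 0.07 (adjusted p = 0.0317, edgeR). Nrip1 had 233 and 223 CPM at 48 h and 195 and 200.5 CPM at 0 h, with a log2 fold change of 0.21 ± 0.07 (adjusted p = 0.0415, edgeR). Neither gene's groups overlapped. These were the least firm of the 6 calls. Each was lost without 0 h replicate 1 (Cbfb adjusted p = 0.549, Nrip1 0.483), without 0 h replicate 2 (Cbfb 0.0704, Nrip1 0.129) and without 48 h replicate 1 (Cbfb 0.576, Nrip1 0.381). Each was also lost in DESeq2 (Cbfb 0.135, Nrip1 0.0649). Cbfb lost it with library size only (0.0633). Nrip1 lost it without 48 h replicate 2 (0.0813), with DESeq2's size factors in edgeR (0.101) and with no filter (0.0505).

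The pattern of Runx2 over the 6 RNA libraries was compared with that of 11291 genes averaging 5 CPM or more. Those with the pattern most like it were Wnt10b, Lipg and Pik3c2g. Likeness was the root mean square distance between centred log2(CPM + 1) values, 0.182 for Wnt10b, 0.215 for Lipg and 0.288 for Pik3c2g. The added 1 CPM shrinks differences between low levels. The log2 fold changes were 5.68 for Wnt10b, 3.88 for Lipg and 8.13 for Pik3c2g, against 4.15 for Runx2. Wnt10b and Pik3c2g reached the mean of 5 CPM only through the 48 h libraries. Wnt10b, a Wnt ligand, had 12.5 ± 1.90 CPM at 48 h and 0.233 ± 0.0553 CPM at 0 h. Lipg, endothelial lipase, had 237 ± 84.0 CPM at 48 h and 16.1 ± 2.47 CPM at 0 h. Pik3c2g, a phosphoinositide kinase, had 12.3 ± 7.73 CPM at 48 h and 1 raw count or none in each library at 0 h. For Runx1 the nearest genes were Nkain1, Zcchc7 and the pseudogene Ppp4r1l-ps, at distances of 0.0509, 0.0551 and 0.0671. Nkain1, whose product binds a subunit of the sodium pump, had 9.10 ± 0.244 CPM at 48 h and 18.4 ± 0.377 CPM at 0 h, and Zcchc7, an RNA surveillance factor, had 22.05 ± 1.03 CPM at 48 h and 40.5 ± 1.83 CPM at 0 h.

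Corepressors and partners of RUNX factors were then examined in RNA. Of 26 listed genes, 8 were higher and 2 lower at 48 h and 16 did not pass, with a median log2 fold change of -0.06. Of all genes tested in RNA, 16.0% were higher and 15.8% lower, the shares to set beside the RNA counts of each list below as well. The number higher was 5 without 0 h replicate 2. The number lower was 3 without 48 h replicate 1 or 0 h replicate 1 and 1 without any of the other 4 libraries. Scaling by library size alone gave 6 higher and 10 lower, so the balance of the list depended on the scaling. Cbfa2t3, a corepressor of the ETO family, had 106 ± 10.6 CPM at 48 h and 57.5 ± 5.92 CPM at 0 h (log2 fold change 0.89 ± 0.11, adjusted p = 8.05e-04). Hipk2, a kinase that phosphorylates RUNX1, had 41.5 ± 8.86 CPM at 48 h and 23.3 ± 2.63 CPM at 0 h (0.83 ± 0.16, adjusted p = 0.00576). Ets1, an ETS factor that binds DNA together with RUNX proteins, had 26.5 ± 9.18 CPM at 48 h and 14.6 ± 0.322 CPM at 0 h (0.85 ± 0.22, adjusted p = 0.0205). Its highest value, 36.0 CPM, stood in 48 h replicate 1, and its call was lost without 48 h replicate 3 or any 0 h library (adjusted p 0.0548 to 0.0605, edgeR). The 2 lower genes, named after their values were seen, were Wwtr1 and Hdac4. Wwtr1, which encodes the Hippo coactivator TAZ, had 68.2 ± 2.88 CPM at 48 h and 92.96 ± 3.14 CPM at 0 h (-0.45 ± 0.07, adjusted p = 0.00295). Hdac4, a deacetylase that binds RUNX2, had 56.9 ± 0.829 CPM at 48 h and 72.9 ± 12.3 CPM at 0 h (-0.36 ± 0.12, adjusted p = 0.0491). The Hdac4 call was lost without any 1 library other than 0 h replicate 1 (adjusted p 0.0720 to 0.195), with DESeq2's size factors in edgeR (0.0649) and in DESeq2 (0.0541).

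Genes of the Groucho/TLE corepressor family, whose full-length members bind the end of RUNX proteins, did not move together. Tle5, a short family member, had 348 ± 23.8 CPM at 48 h and 197 ± 31.6 CPM at 0 h (log2 fold change 0.82 ± 0.13, adjusted p = 0.00220). The members that follow were named after their values were seen. Tle2 had 138 ± 14.3 CPM at 48 h and 97.6 ± 4.12 CPM at 0 h (0.50 ± 0.09, adjusted p = 0.00530), and Tle3 had 55.5 ± 4.01 CPM at 48 h and 40.5 ± 3.72 CPM at 0 h (0.45 ± 0.10, adjusted p = 0.00939). Tle1 had 70.1 ± 2.37 CPM at 48 h and 92.7 ± 21.2 CPM at 0 h (-0.40 ± 0.14, adjusted p = 0.0633), and Tle4 had 24.2 ± 3.06 CPM at 48 h and 30.03 ± 1.38 CPM at 0 h (-0.30 ± 0.11, adjusted p = 0.0658). Tle1 and Tle4 passed as lower only with library size as the only scaling (adjusted p = 0.0106 for Tle1 and 0.0149 for Tle4, edgeR). Under that scaling the median log2 fold change of all genes was -0.20, against -0.03 with TMM. In H3K4me3, Tle2 had 45.3 ± 3.08 CPM at 48 h and 22.8 ± 0.458 CPM at 0 h (SD, n = 2 each; log2 fold change 0.99 ± 0.09, adjusted p = 1.13e-11, edgeR). Tle5 and Tle3 passed as well, at log2 fold changes of 0.60 ± 0.07 (adjusted p = 7.91e-08) and 0.58 ± 0.07 (adjusted p = 4.86e-08). Over the RUNX partner list, 7 of 26 genes were higher and 1 lower in H3K4me3. Of all genes tested there, 6.35% were higher and 2.08% lower, and 10.6% of those with at least 50 CPM were higher. The number higher was 3 without 0 h replicate 1, and the number lower was 0 without 48 h replicate 2 or either 0 h library. The lower gene was Wwtr1, with 114 ± 7.24 CPM at 48 h and 136 ± 7.43 CPM at 0 h (log2 fold change -0.26 ± 0.07, adjusted p = 0.0148).

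Foxl2, which acts with RUNX1 in fetal granulosa cells and was named for that reason, had 490.2 ± 62.8 CPM at 48 h and 335 ± 49.7 CPM at 0 h (log2 fold change 0.55 ± 0.14, adjusted p = 0.0187). That call was lost without 48 h replicate 2 (adjusted p = 0.0531), without 0 h replicate 2 (adjusted p = 0.0609) and with library size only (adjusted p = 0.0505). Runx1 RNA was lower in the same libraries.

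Of the 11 other bZIP factors listed, which can pair with C/EBP proteins or bind related sites, 9 were tested in RNA, with 1 higher, 1 lower and a median of -0.47. Dbp, a clock output factor, had 26.7 ± 5.16 CPM at 48 h and 14.9 ± 2.999 CPM at 0 h (log2 fold change 0.82 ± 0.18, adjusted p = 0.0103). Nfil3, a repressor that binds the same sites as Dbp, had 9.70 ± 1.06 CPM at 48 h and 16.1 ± 2.16 CPM at 0 h (-0.73 ± 0.15, adjusted p = 0.00685). Leaving out 48 h replicate 1 gave 3 lower genes, and leaving out 0 h replicate 1 gave 2. Scaling by library size alone gave 4 lower genes and 1 higher.

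Of 17 partners and coregulators that work with NRIP1, 1 was higher and 4 lower, with a median of -0.16. With library size only, 0 were higher and 8 lower by the same test. Hdac5, a class II histone deacetylase, had 71.2 ± 3.43 CPM at 48 h and 96.9 ± 9.66 CPM at 0 h (log2 fold change -0.44 ± 0.09, adjusted p = 0.00772). The coactivators Ncoa2, at 75.97 ± 10.4 CPM at 48 h and 104 ± 5.80 CPM at 0 h (-0.45 ± 0.11, adjusted p = 0.0144) and Ncoa3, at 41.3 ± 1.93 CPM at 48 h and 53.1 ± 2.52 CPM at 0 h (-0.36 ± 0.08, adjusted p = 0.0115) were also lower, as was the histone methyltransferase Ehmt2 (-0.28 ± 0.08, adjusted p = 0.0315), named after its values were seen. Ehmt2 lost its call without 48 h replicate 2 or 3 or 0 h replicate 2 or 3 (adjusted p 0.0812 to 0.144) and with no filter (0.0536). Ncoa2 and Ncoa3 lost their call without 0 h replicate 2 or replicate 3 (adjusted p 0.0560 to 0.0622, edgeR). Without either of those libraries the number lower was 1. Hdac1, a class I histone deacetylase and the gene higher at 48 h (0.35 ± 0.10, adjusted p = 0.0249), lost its call without 48 h replicate 2 or 3 or 0 h replicate 2 or 3 (adjusted p 0.0596 to 0.0952). With library size only its log2 fold change was 0.18 (adjusted p = 0.180).

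Nuclear receptors, the class that NRIP1 acts on, gave 2 higher and 6 lower of 23 tested, with a median of -0.10. Without any 1 library the numbers were 1 to 3 higher and 4 or 5 lower. They were 1 higher and 9 lower with library size only. Rarg, a retinoic acid receptor, had 31.9 ± 0.828 CPM at 48 h and 64.0 ± 5.35 CPM at 0 h (log2 fold change -1.01 ± 0.09, adjusted p = 2.67e-04). Esr2, the estrogen receptor of granulosa cells, had 186 ± 19.3 CPM at 48 h and 372 ± 55.0 CPM at 0 h (-0.99 ± 0.13, adjusted p = 0.00110). Ppara, a fatty acid receptor, had 11.7 ± 0.648 CPM at 48 h and 20.9 ± 1.69 CPM at 0 h (-0.84 ± 0.11, adjusted p = 0.00127). Esrrg, an orphan receptor of the estrogen receptor family, had a log2 fold change of -0.78 ± 0.25 (adjusted p = 0.0429). Its call was lost without any 1 library other than 0 h replicate 2 (adjusted p 0.0738 to 0.169), with no filter (0.0586) and in DESeq2 (0.0745). Thrb, a thyroid hormone receptor named after its values were seen, had 13.4 ± 0.988 CPM at 48 h and 8.34 ± 1.17 CPM at 0 h (0.68 ± 0.15, adjusted p = 0.00904). Nr5a1, the steroidogenic factor SF-1, was named in the same way. It had 361 ± 46.4 CPM at 48 h and 263 ± 20.9 CPM at 0 h (0.46 ± 0.12, adjusted p = 0.0191). Its call was lost without 48 h replicate 2 or 3 or 0 h replicate 2 or 3 (adjusted p 0.0530 to 0.0779, edgeR). With library size only its log2 fold change was 0.29 (adjusted p = 0.0851).

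Genes of ovulation and luteinization, processes in which RUNX, C/EBP and NRIP1 proteins act, gave 19 higher and 2 lower of 30 tested, with a median of 1.37. Of all genes tested, 16.0% were higher and 15.8% lower. The list, like the others, was chosen with earlier results of these data known, so its count is descriptive. It also holds Inha and Cyp19a1, which are among the granulosa markers. Sfrp4, a secreted Wnt modulator, had 1084 ± 336 CPM at 48 h and 10.6 ± 4.61 CPM at 0 h (log2 fold change 6.68 ± 0.40, adjusted p = 5.86e-05). Abcb1b, an efflux transporter, had 182 ± 137 CPM at 48 h and 3.12 ± 0.933 CPM at 0 h (5.84 ± 0.58, adjusted p = 3.68e-04). Ptgfr, the receptor for prostaglandin F, had 90.7 ± 34.2 CPM at 48 h and 4.06 ± 3.57 CPM at 0 h (4.54 ± 0.50, adjusted p = 5.81e-04). Lhcgr, the receptor for luteinizing hormone, reached 884 ± 245 CPM at 48 h, against 66.7 ± 23.2 CPM at 0 h (3.73 ± 0.30, adjusted p = 1.79e-04). Other listed genes, named after their values were seen, were low at 48 h. Areg, Ereg, Ptgs2, Tnfaip6, Pgr, Has2, Hapln1, Ptx3 and Edn2 had means between 0.771 and 2.63 CPM there. Of these, Areg, Ereg, Ptgs2 and Tnfaip6 still passed as higher at 48 h, with log2 fold changes between 1.19 and 3.15. Pgr, Has2, Hapln1, Ptx3 and Edn2 did not pass. The 2 lower genes, named after their values were seen, were Rgs2, a regulator of G protein signalling, at 258 ± 8.69 CPM at 48 h and 484 ± 88.4 CPM at 0 h, and Egr1 at 25.3 ± 3.603 CPM at 48 h and 73.5 ± 30.3 CPM at 0 h. All adjusted p-values for listed genes are from edgeR's quasi-likelihood test across all genes, and their levels are means ± SD of n = 3 libraries a group in RNA.

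**Figure D5:**
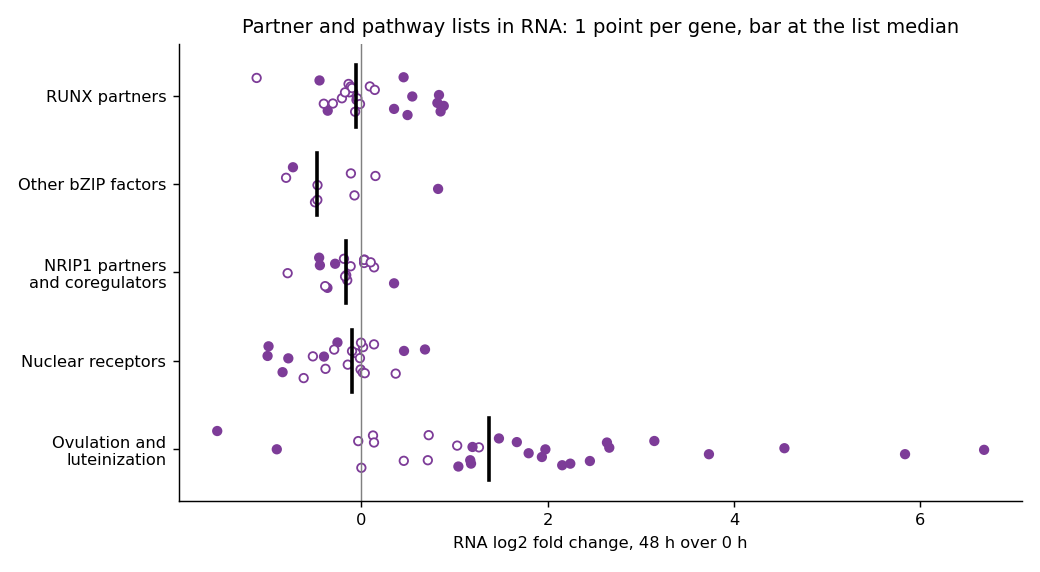
RNA log2 fold change, 48 h over 0 h (x axis), of the tested genes of 5 lists (rows), with 1 point per gene, filled where the adjusted p was under 0.05, and a bar at each list's median. Medians lie between -0.47 and -0.06 for 4 lists and at 1.37 for genes of ovulation and luteinization. The lists were chosen with earlier results of these data known.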

How the data were processed

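The authors deposited raw counts per Entrez gene ID for RNA and for H3K4me3, with no scaling visible in the values. Tools named for RNA, per the submitters' processing notes, were STAR, kallisto, sleuth, Picard and FastQC 0.11.5. Those named for ChIP-seq were ChIPseeker 1.18.0, MACS2 2.2, Bowtie2 2.2.9 and Trimmomatic. The build was mm10. Their roles, the program that made the counts, its use of strand and the window counted per gene in H3K4me3 were not given in the sources used here, so an H3K4me3 value is called the count of a gene. The input library was not used. H3K4me3 columns were matched to a group by name, and the number ending a column name only names a library.

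Symbols and coordinates came from RefSeq (GRCm38.p6), which matched 24742 of 24809 RNA IDs and 24472 of 24541 H3K4me3 IDs. The 48 h and 0 h libraries of an assay were compared on the deposited counts with edgeR 4.0.16 in R 4.3.3 (quasi-likelihood test, TMM scaling, filterByExpr, Benjamini-Hochberg adjustment over all genes tested, threshold 0.05). The SE was derived from the test statistic. Normalised read counts are CPM with TMM scaling. The biological coefficient of variation was 0.141 in RNA and 0.0465 in H3K4me3, and the procedure was tested on simulated data. Libraries of a group differed by more than sampling noise and each was counted once. The p-values rest on the spread between libraries, estimated in part from variation shared across genes. DESeq2 1.42.0, other scalings, no filter, a replicate block and leaving out each library were alternatives. Members and gene lists were chosen with earlier results of these data known. Named genes were all members, up to 4 called genes with the largest change per list, genes needed for a statement on a member, and the 3 nearest patterns of each called member; genes outside this rule are marked in the text as named after their values were seen.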

Additional observations from a re-analysis of the deposited data

How the results depend on the processing

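In RNA the calls of Runx2 (log2 fold change 3.95 to 4.29) and Runx1 (-1.15 to -0.94) kept their direction and passed under all 11 alternatives. Members called numbered 4 in place of 2, and members higher 3 in place of 1, with DESeq2's size factors and in DESeq2. Without any 1 library, 2 to 4 members were called and 1 to 3 were higher. Over all genes, 4585 were called (2303 higher, 2282 lower). Without any 1 library the numbers were 2882 to 5345 called, 1580 to 2697 higher and 1228 to 2648 lower. With library size only, 4222 were lower and 26.8% of calls were higher, against 50.2% with TMM, and leaving out 48 h replicate 2 gave 59.6%, replicate 3 60.2%. In H3K4me3, 2062 genes were called (1554 higher, 508 lower). The numbers were 865, 611 and 254 in DESeq2, 945 higher and 862 lower with library size only, and 282 to 2764 called, 159 to 2070 higher and 123 to 694 lower without any 1 library. The share of H3K4me3 calls that were higher was 75.4%, against 52.3% with library size only and 56.4% without 0 h replicate 1. Members called there, all higher, numbered 2 in DESeq2, 4 with the replicate block, 5 with DESeq2's size factors, library size only or no filter, and 0 to 6 without any 1 library.

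The labels do not say whether a replicate number marks a shared animal or day. Deviations of same-numbered libraries from their group means correlated at -0.222, -0.148 and -0.171 in RNA and at -0.047 in H3K4me3. With 2 libraries a group the deviations mirror each other, so the H3K4me3 figure is a single value. So few libraries cannot decide whether the numbers mark pairs. With the replicate block, 3312 RNA genes and 2 members were called, and in H3K4me3 1280 genes, 908 of them higher, and 4 members. Of the calls reported for named genes, the block ended the RNA calls of Hdac1 (adjusted p = 0.0622), Hdac4 (0.0676), Ehmt2 (0.0867), Nr5a1 (0.0552) and Esrrg (0.108), and the H3K4me3 calls of Cbfb (0.121), Nrip1 (0.232) and Wwtr1 (0.0831).

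Signs turned, in results that did not pass, with library size only for RNA of Nrip1 (-0.12) and H3K4me3 of Nfil3 (-0.039), and with no filter for H3K4me3 of Nfil3 (-0.0056). They also turned when single libraries were left out, over which RNA log2 fold changes spanned -0.0695 to 0.38 for Cebpd and -0.0323 to 0.12 for Nrip1. In H3K4me3 they spanned -0.0748 to 0.31 for Runx1, -0.44 to 0.0593 for Runx3, -0.0111 to 0.11 for Dbp, -0.0181 to 0.0391 for Nfil3, -0.10 to 0.36 for Cbfa2t3, -0.12 to 0.10 for Rarg, -0.0026 to 0.13 for Tle4 and -0.68 to 0.0191 for Pik3c2g. The causes were not tested. The lowest raw counts among the members were those of Runx3 in both assays and of Runx1 in H3K4me3.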
